A study of Mus musculus with 26 samples.

Results

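The Foxo transcription factors were followed in subcutaneous white fat of mice that lacked either every form of ChREBP or its β isoform alone. The family has 4 genes, Foxo1, Foxo3, Foxo4 and Foxo6, of the 37074 gene names on the array, and every probe annotated to 1 of them was taken. These were 8 of 56605 probes, 2 for Foxo1, 3 for Foxo3, 2 for Foxo4 and 1 for Foxo6. The family was taken up because Foxo6 had been seen to be higher in total ChREBP-KO fat, so its values are given as a description and carry no test. Foxo1, Foxo3 and Foxo4 came in by name and not by value, and 6 of their 7 probes passed the filter and were tested.

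The samples were 26 arrays, 1 per mouse, hybridised with Cy3-labelled RNA from the subcutaneous depot (the inguinal pad, per the study's methods) of male C57BL6/J mice. ChREBPtotal_KO mice (n = 7, called total ChREBP-KO here) carried a null Mlxipl gene and lacked both the α and the β isoform, and ChREBPbeta_KO mice (n = 5, ChREBPβ-KO) lacked only the exon that starts the β transcript, which had been removed by CRISPR/Cas9. ChREBPtotal_WT (n = 7) and ChREBPbeta_WT (n = 7) were the wild types of the same lines, called total-line WT and β-line WT. Both deletions were present in every tissue from the embryo on, so the arrays do not separate what happened in fat from what happened elsewhere in the animal. All 4 groups had been fasted for 24 h and refed for 18 h with food and with water holding 20% glucose, and the ages were not given in the sources used here. The study compared the loss of ChREBPβ with the loss of both isoforms.

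FOXO proteins are forkhead transcription factors that insulin restrains: the kinase AKT phosphorylates them, 14-3-3 proteins then hold them in the cytoplasm, and their target genes for fuel switching, autophagy, stress defence and cell-cycle arrest fall silent after a meal. FOXO1 is the member best known in fat and liver, FOXO3 and FOXO4 are widely expressed, and FOXO6 is known mainly from the brain and differs in that it shuttles little between nucleus and cytoplasm. ChREBP is the glucose-activated factor that switches on glycolytic and lipogenic genes on refeeding.

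Each probe is a 60-base oligonucleotide, and the bases of its 3′ end are shown for the probes on which the results turn, because everything measured on Foxo6 comes from 1 such sequence. They are bases 31 to 60 of the probe, 5′ to 3′ in the sense of the transcript, with the letters AATAAA in capitals.
Foxo6 A_52_P589568: gcatattttcatgAATAAAattgttttaaa
Foxo1 A_52_P453884: tattgtacatgattgctctgtgaaaagact
Foxo1 A_55_P2798990: atgcccttcacccttccttatagttttcaa
Foxo3 A_55_P2735425: agcagcacgctgggttccgggctgctcctc
Foxo4 A_51_P200875: ctacacttctgttactgggaggaatgcctt
AATAAA, searched on the printed strand only, is the hexamer found near the 3′ end of many messenger RNAs. It was present in the Foxo6 probe and in none of the other 7 Foxo probes, and in 9.77% of all probes on the array. The longest run that the Foxo6 probe shared with any other probe on the array was 14 bases, with a probe for Nbl1, and it shared no more than 8 bases in a row with another Foxo probe. The annotation that comes with the array (mouse build mm9) places the Foxo6 probe at chr4:119939688-119939747 on the minus strand and gives no exon or UTR for it. It places the Foxo1 probes A_55_P2798990 at chr3:52150946-52151005 and A_52_P453884 at chr3:52153289-52153348, both on the plus strand. The 3 Foxo3 probes lie on the minus strand of chr10, A_65_P08314 at chr10:41901997-41902056, A_55_P2506540 at chr10:41916349-41916408 and A_55_P2735425 at chr10:41994961-41995020. The Foxo4 probes A_55_P2113031 at chrX:98451524-98451583 and A_51_P200875 at chrX:98454216-98454275 lie on the plus strand.

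Values are log2 of quantile-normalized intensity, and a probe or gene is said to pass, rise or fall where its adjusted p in limma (Benjamini-Hochberg over all 38832 tested probes) was under 0.05. Mlxipl, the gene deleted, was checked first. At probe A_55_P2119957 its level was 20.5% of WT in total ChREBP-KO and 34.9% in ChREBPβ-KO, with every KO array below every WT array of its line, as was so for 4.51% of all tested probes in the total line and for 0.27% in the β line. Probe A_55_P2728555 gave 53.5% and 62.3% and probe A_55_P2045158 gave 91.3% and 103%. Which Mlxipl probes lie in the deleted parts was not determined here. A probe is called detected on an array where its spot was found, significantly positive and well above background, which held for 64.0% to 70.1% of spots per array. Of 13 adipocyte markers, 12 or 13 were detected on all arrays of each group. The mean log2 level of 15 lymphocyte markers ran from 10.73 to 12.33 in total-line WT, from 7.72 to 11.04 in total ChREBP-KO, from 7.21 to 8.35 in β-line WT and from 7.16 to 8.70 in ChREBPβ-KO. That of 12 skeletal muscle markers had medians of 6.25, 10.91, 9.18 and 9.32 in the same order of groups. In total ChREBP-KO, where 25.8% of all gene names rose and 20.1% fell, 11 of the 13 adipocyte markers rose and 1 fell. Their median difference was 0.50. Of the 13, 8 were higher in β-line WT than in total-line WT, where 45.4% of all probes passed in either direction. Of 10 endothelial markers 5 rose in total ChREBP-KO, of 12 macrophage markers 4 fell, and of 8 tested neural and mammary epithelium markers 1 rose and 1 fell. Of the 12 skeletal muscle markers 3 rose in total ChREBP-KO and 0 fell. No marker of the 6 lists passed in ChREBPβ-KO, where 0.0512% of all gene names did. Bulk tissue does not tell fewer cells of a type from less RNA per cell.

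Foxo6 was high in all 7 total ChREBP-KO arrays and low in the 19 others. In total-line WT its level ran from 6.22 over a median of 6.46 to 6.89, and in total ChREBP-KO from 10.24 over 10.74 to 11.41. In β-line WT it ran from 6.77 over 6.96 to 7.97, and the 5 ChREBPβ-KO arrays gave 7.62, 6.93, 7.61, 7.11 and 6.89. The total ChREBP-KO arrays thus stood apart from every other array, the lowest of them lying 2.27 log2 units above the highest of the other 19. The 2 groups of the β line overlapped. Total-line WT reached into them through replicate 1 alone, and its next highest array lay at 6.51, below all β-line arrays. Replicate 1, at 6.8861, barely exceeded the lowest ChREBPβ-KO array, at 6.8858, and in the deposited values it did not (6.8841 against 6.8851).

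The means (± SD) were 6.50 ± 0.20 in total-line WT, 10.79 ± 0.44 in total ChREBP-KO, 7.24 ± 0.47 in β-line WT and 7.23 ± 0.36 in ChREBPβ-KO. On the linear scale these means correspond to intensities of 90.4, 1777, 150.7 and 150.0. The order of the levels was therefore total-line WT, then the 2 groups of the β line, which did not differ beyond their spread, and then total ChREBP-KO. Foxo6 was 19.7-fold higher in total ChREBP-KO than in its WT, which was the 3rd largest rise among the 25407 gene names tested. The probe was detected on all 26 arrays, so neither level is a bound. The raw median pixel intensity, before any normalization, was 74.5 to 143 in total-line WT and 1051 to 3066 in total ChREBP-KO.

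**Figure D1:**
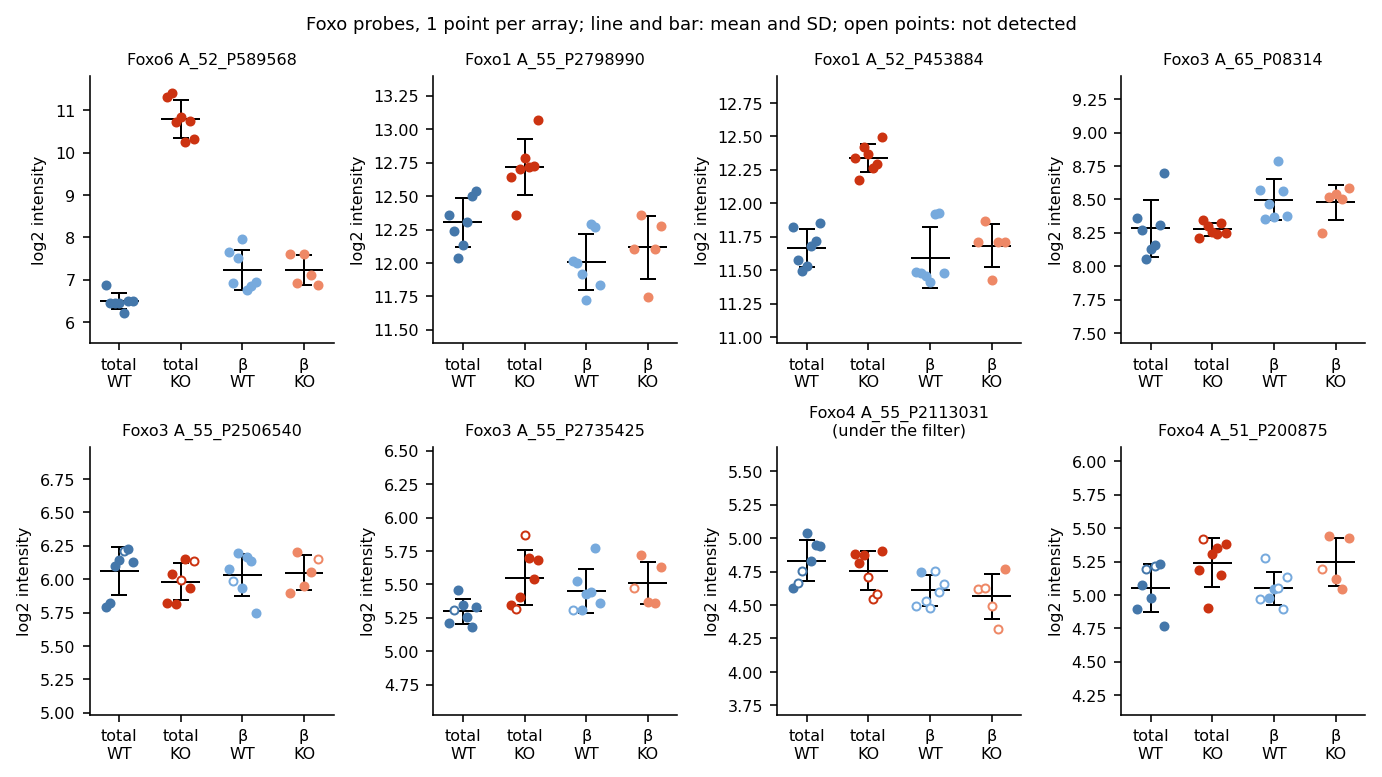
Log2 intensity of the 8 Foxo probes (y axis) in each array (points) of the 4 groups (x axis), with mean and SD as black lines and open points for arrays on which the probe was not detected. The Foxo6 axis spans a wider range than the others, which span 2 log2 units each. The 7 total ChREBP-KO arrays lie between 10.24 and 11.41 for Foxo6 and the other 19 between 6.22 and 7.97.

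The difference in Foxo6 was present in each of the 4 wash batches that the labels give, at 3.99 to 4.74 log2 units. The change in ChREBPβ-KO was -0.01 over all arrays and -0.69 to 0.40 within the 3 wash batches that held both groups. The β-line WT mean lay 0.74 log2 units above the total-line WT mean, and by 0.50 to 1.51 within the 4 wash batches. The KO change of the total line and the difference between the WT groups share the total-line WT arrays. The difference between total ChREBP-KO and its WT was 4.17 in a fit that took the lymphocyte score as a covariate and 4.04 with the muscle score added. The total ChREBP-KO arrays of lowest and highest lymphocyte score, 7.72 and 11.04, had Foxo6 levels of 11.30 and 10.32. The plot of Foxo levels beside marker scores shows all arrays. The part of lymphocyte or muscle content in the Foxo6 difference was not tested.

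**Figure D2:**
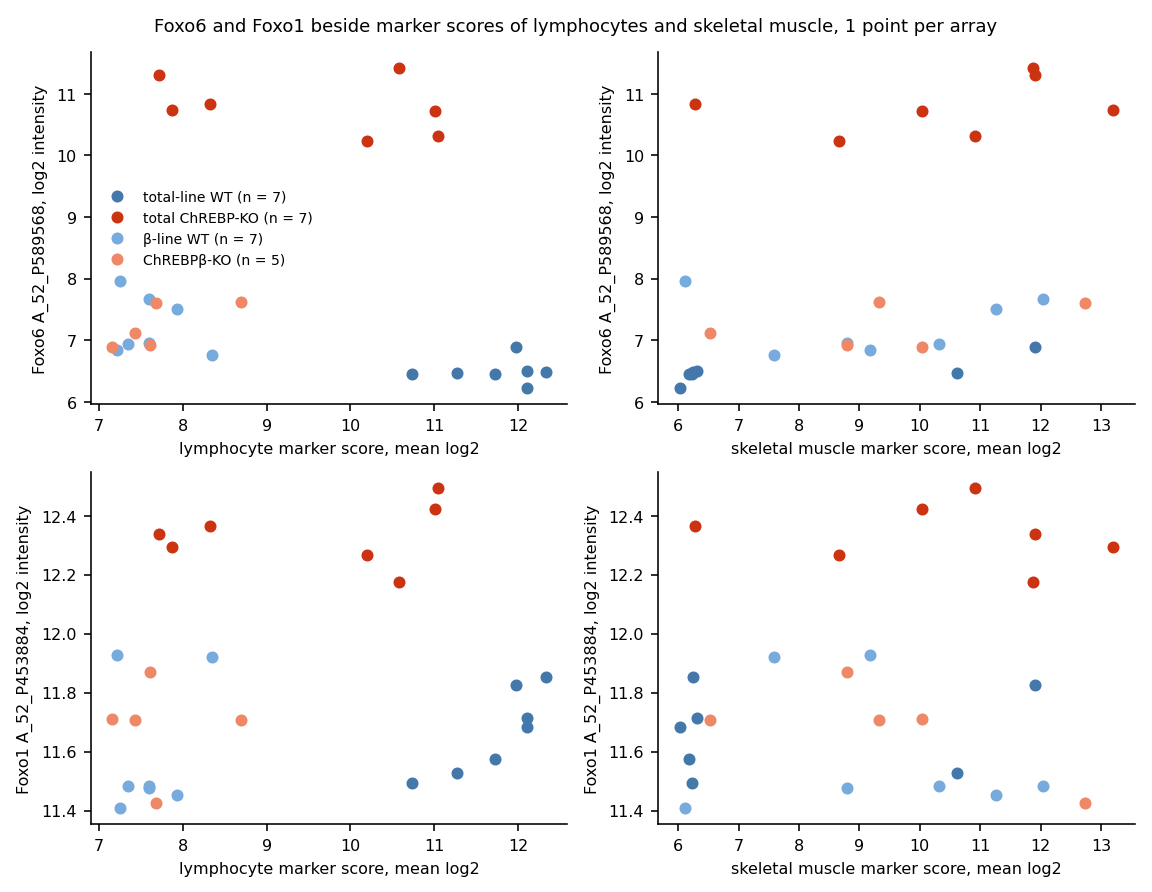
Log2 intensity of Foxo6 (top) and of Foxo1 probe A_52_P453884 (bottom) on the y axis, beside the mean log2 level of 15 lymphocyte markers (left) and 12 skeletal muscle markers (right) on the x axis, 1 point per array, coloured by group. Total ChREBP-KO arrays lie above the other arrays in all 4 panels, over lymphocyte scores from 7.72 to 11.04 and muscle scores from 6.28 to 13.20.

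Of the 6 tested probes of Foxo1, Foxo3 and Foxo4, 3 were higher in total ChREBP-KO and none was lower, where 45.5% of all tested probes passed and 26% passed as higher. The 3 were both Foxo1 probes and 1 of 3 Foxo3 probes. The share that passed in either direction, 3 of 6, lies near the 45.5% of all probes. The share that passed as higher, also 3 of 6, lies above the 26%, over only 6 probes. None of the 6 passed in ChREBPβ-KO, where 0.0386% of all probes did, and at an unadjusted p under 0.05 the count was 0 as well.

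Foxo1, the FOXO member that drives gluconeogenic and atrophy genes when insulin is low, rose at both of its probes. At A_52_P453884 the level ran from 11.49 over 11.68 to 11.85 in total-line WT and from 12.17 over 12.34 to 12.49 in total ChREBP-KO. It ran from 11.41 over 11.48 to 11.93 in β-line WT, and the 5 ChREBPβ-KO arrays gave 11.71, 11.87, 11.43, 11.71 and 11.71. All total ChREBP-KO arrays lay above all arrays of the 3 other groups, a separation from the own WT that 9.76% of all tested probes showed in the higher direction. The rise was 0.67 ± 0.09 (log2 difference ± SE, n = 7 and 7, limma adjusted p = 1.31e-06), or 1.59-fold.

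At the second Foxo1 probe, A_55_P2798990, the level ran from 12.04 over 12.31 to 12.54 in total-line WT and from 12.36 over 12.72 to 13.07 in total ChREBP-KO. It ran from 11.73 over 12.00 to 12.29 in β-line WT, and the 5 ChREBPβ-KO arrays gave 12.10, 12.36, 11.74, 12.10 and 12.28. Here the groups of the total line overlapped, and the rise was smaller, 0.41 ± 0.11 (limma adjusted p = 0.00309), or 1.33-fold. The adipocyte markers rose by a median of 0.50 in the same arrays, and their part in the Foxo1 rise was not tested. Within wash batches the difference was 0.47 to 0.89 at A_52_P453884 and 0.06 to 0.70 at A_55_P2798990. With the lymphocyte score as a covariate, where 15.2% of all probes passed, both Foxo1 probes still did, at 0.76 (limma adjusted p = 7.22e-05) and 0.51 (limma adjusted p = 0.0215). With the slide as a fixed block, which leaves 8 residual degrees of freedom, neither did, at 0.43 (limma adjusted p = 0.0502) and 0.20 (limma adjusted p = 0.478), and the share of all probes that passed fell from 45.5% to 21.7%.

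In ChREBPβ-KO, Foxo1 differed from its WT by 0.09 (95% interval -0.11 to 0.29) at A_52_P453884 and by 0.11 (-0.13 to 0.35) at A_55_P2798990, both with a limma adjusted p of 0.91. The 2 KO effects were compared directly by the interaction term of the fit. At A_52_P453884 the effect of ChREBPβ-KO was 0.58 ± 0.13 log2 units smaller than that of total ChREBP-KO (limma adjusted p = 0.00271). It was the only one of the 6 tested probes to pass this comparison, in which 22.5% of all probes did. At A_55_P2798990 the difference of effects was -0.30 ± 0.16 (limma adjusted p = 0.186). Scaled to the 75th percentile, from either kind of signal, A_55_P2798990 passed as well, at -0.43 (limma adjusted p = 0.0409 from median intensities). With the slide as a fixed block neither Foxo1 probe passed, at -0.25 (limma adjusted p = 0.550) for A_52_P453884. In that fit the share of all probes that passed this comparison fell from 22.5% to 1.59%.

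**Figure D3:**
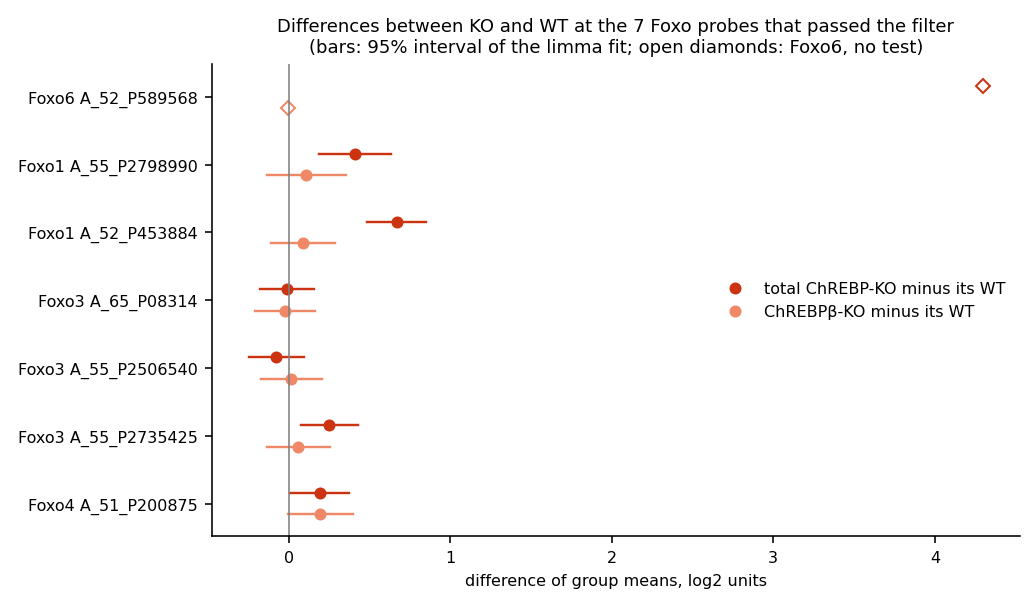
Differences between KO and WT means (x axis, log2 units) for the 7 Foxo probes that passed the filter (y axis), in the total line (dark red) and the β line (orange), with the 95% interval of the limma fit. The Foxo6 diamonds, at 4.30 and -0.01, have no interval because the gene was chosen for this difference, and the Foxo1 intervals of the total line lie above 0 while those of the β line include it.

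Foxo3, a regulator of autophagy and of stress-response genes, gave 3 probes that did not move alike. The probe farthest from the 3′ end of the gene by the array annotation, A_55_P2735425, ran from 5.18 over 5.31 to 5.46 in total-line WT and from 5.32 over 5.54 to 5.87 in total ChREBP-KO, and the groups overlapped. Its rise was 0.25 ± 0.09 (limma adjusted p = 0.0190). The probe was dim and was detected on 6 of 7 total-line WT and 5 of 7 total ChREBP-KO arrays, though well above background on all 26.

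The rise at A_55_P2735425 did not pass when arrays were scaled to their 75th percentile, at 0.16 from median intensities (limma adjusted p = 0.357) and 0.35 from processed signals (limma adjusted p = 0.0830), nor with the lymphocyte score as a covariate, at 0.17 (limma adjusted p = 0.387). It did not pass without total ChREBP-KO replicate 4 either, at 0.20 (limma adjusted p = 0.0565). Of all probes 42.1% passed with scaled median intensities, 45.9% with scaled processed signals and 15.2% with the covariate.

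The brightest Foxo3 probe, A_65_P08314, was detected on all 26 arrays and ran from 8.05 over 8.27 to 8.70 in total-line WT and from 8.21 over 8.26 to 8.35 in total ChREBP-KO. It ran from 8.36 over 8.46 to 8.79 in β-line WT, and the ChREBPβ-KO arrays gave 8.24, 8.52, 8.54, 8.50 and 8.58. KO and WT overlapped in both lines, and the differences were -0.01 (95% interval -0.18 to 0.16, limma adjusted p = 0.944) in the total line and -0.02 (-0.21 to 0.16, limma adjusted p = 0.991) in the β line. The third probe, A_55_P2506540, differed by -0.08 (-0.25 to 0.09, limma adjusted p = 0.470) and by 0.02 (-0.17 to 0.20, limma adjusted p = 0.993).

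Foxo4, the X-linked member, was dim. A_51_P200875 was well above background on all 26 arrays but detected on 17, and it passed the filter only through total ChREBP-KO (6 of 7 arrays) and ChREBPβ-KO (4 of 5), the groups in which its mean was higher. It ran from 4.77 over 5.07 to 5.23 in total-line WT and from 4.90 over 5.31 to 5.42 in total ChREBP-KO. It ran from 4.89 over 5.04 to 5.27 in β-line WT, and the ChREBPβ-KO arrays gave 5.19, 5.44, 5.12, 5.05 and 5.42. The groups overlapped in both lines. The differences were of like size, 0.19 (95% interval 0.01 to 0.37, limma adjusted p = 0.0826) in the total line and 0.20 (-0.00 to 0.40, limma adjusted p = 0.647) in the β line, and neither passed. Without total ChREBP-KO replicate 3 the difference in the total line did pass, at 0.25 (limma adjusted p = 0.0199). The filter let this probe in through the groups with the higher means, so its p-values are not free of that choice. The other Foxo4 probe, A_55_P2113031, was detected on 11 of 26 arrays, did not pass the filter and was not tested, and its group means ran from 4.57 to 4.83.

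The 2 WT groups differed at 2 of the 6 tested Foxo1, Foxo3 and Foxo4 probes, in a comparison in which 45.4% of all probes passed. Of the 17644 probes that passed 9967 were higher in β-line WT, against 7769 of 17885 when arrays were scaled to their 75th percentile. Foxo1 A_55_P2798990 was lower in β-line WT than in total-line WT by 0.30 ± 0.11 log2 units (limma adjusted p = 0.0277), while A_52_P453884 differed by -0.07 ± 0.09 (limma adjusted p = 0.524). Foxo3 A_65_P08314 was higher in β-line WT by 0.22 ± 0.08 (limma adjusted p = 0.0339). Neither of these calls held with arrays scaled to their 75th percentile, at -0.21 (limma adjusted p = 0.0886) and 0.14 (limma adjusted p = 0.178). With the lymphocyte score as a covariate neither passed, at -0.11 (limma adjusted p = 0.822) and 0.35 (limma adjusted p = 0.217). That score did not overlap between the WT groups, at 10.73 to 12.33 in total-line WT and 7.21 to 8.35 in β-line WT. The covariate fit thus cannot tell the line from the score. With the covariate the share of all probes that passed fell from 45.4% to 5.27%. With the scaling it was 46.1% from median intensities and 47.3% from processed signals.

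Without single arrays the differences ran from -0.34 to -0.25 and from 0.17 to 0.28, and both calls could be lost. The Foxo1 call was lost without β-line WT replicate 4 (-0.25, limma adjusted p = 0.0700) or 8 (-0.27, 0.0580) and without total-line WT replicate 7 (-0.26, 0.0623) or 8 (-0.26, 0.0658). The Foxo3 call was lost without total-line WT replicate 4 (0.18, limma adjusted p = 0.0802), 5 (0.19, 0.0735) or 6 (0.19, 0.0720) and without β-line WT replicate 1 (0.20, 0.0605), 6 (0.17, 0.0912) or 7 (0.20, 0.0584). With the slide as a fixed block, where 31.0% of all probes passed, the Foxo3 difference was 0.19 (limma adjusted p = 0.283).

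The genes whose pattern over the 26 arrays was most like that of Foxo6 were picked by Pearson's r over all gene names, 1 probe per gene. They were Unc93a, a little-studied membrane protein (r = 0.97), Hydin, a component of motile cilia (0.96), the gene model Gm9895 (0.95), Tmem55b, a lysosomal membrane protein (0.95), and Eif4ebp1, a repressor of cap-dependent translation (0.95). Among the most opposite were Deptor, an inhibitor of mTOR (r = -0.96), and the phospholipase Ddhd2 (-0.95). These coefficients largely restate the gap between total ChREBP-KO and the rest. After the group means were taken out, r was 0.42 for Unc93a, 0.17 for Hydin, 0.43 for Gm9895, 0.54 for Tmem55b and 0.10 for Eif4ebp1. The total ChREBP-KO minus WT difference was 4.27 for Unc93a, 3.32 for Hydin and 0.51 for Tmem55b. Unc93a was detected on 4 of 7 total-line WT arrays and Hydin on 6 of 7, and both on 7 of 7 total ChREBP-KO arrays.

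Within the family the brightest Foxo1 probe, A_55_P2798990, had r = 0.60 with Foxo6 over the 26 arrays, and -0.61 after the group means were taken out. Foxo3 A_65_P08314 had r = -0.28 and -0.12, and Foxo4 A_51_P200875 had 0.32 and -0.27. The coefficients of Foxo1 and Foxo4 thus changed sign once the group means were removed.

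Genes beside Foxo6 on the chromosome did not share the size of its difference. Within 500 kb of its probe the array holds 29 probes under 19 names, of which 21 probes under 12 names were tested, and their total ChREBP-KO minus WT differences ran from -0.69 to 0.55. At 1 probe per gene, 4 of the 12 rose and 2 fell, where 45.8% of all gene names passed, and none of the 12 passed in limma in ChREBPβ-KO, where 0.0512% did and 1 of the 12 had an unadjusted p under 0.05. Those that rose included the transcript CF579348 (0.29, limma adjusted p = 0.00645) and the regions read by probes A_30_P01028332 (0.30, limma adjusted p = 0.00185) and A_30_P01020614 (0.19, limma adjusted p = 0.0130), which lie 35.2 and 36.1 kb from the Foxo6 probe. Those that fell were Ctps, which makes CTP (-0.24, limma adjusted p = 0.00590), and BC037762 (-0.30, limma adjusted p = 0.0101). BC037762 passed the filter through total-line WT (6 of 7 arrays, mean 5.73) and through ChREBPβ-KO (4 of 5 arrays, mean 5.22). With the lymphocyte score as a covariate 1 of the 12 passed, where 15.2% of all probes did. With the slide as a fixed block none of the 12 passed, where 21.7% of all probes did.

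The other 6 tested names did not pass at the probe chosen for them: Hivep3 (0.14), Scmh1 (0.16), Cited4 (0.01), Nfyc (-0.12) and the regions read by A_30_P01023166 (0.10) and A_30_P01024131 (0.00), the last being the nearest tested probe, 15.7 kb away. Probes of the same gene disagreed for Hivep3, a zinc-finger factor, whose 4 tested probes gave 0.37, 0.14, -0.32 and -0.69. All but the chosen one, at 0.14, passed (limma adjusted p = 0.000248, 0.0433 and 4.35e-05). The probe at -0.32 was detected on 7 of 7 total-line WT and 4 of 7 total ChREBP-KO arrays. The 5 tested probes of Scmh1, a Polycomb gene, gave 0.04 to 0.55. Those at 0.41, 0.52 and 0.55 passed (limma adjusted p = 1.34e-05, 7.81e-06 and 1.69e-06). Over all 21 tested probes 8 rose and 4 fell, where 45.5% of all tested probes passed in either direction. Edn2, Slfnl1, Gm8439 and 4 further names were not detected on enough arrays to be tested.

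**Figure D4:**
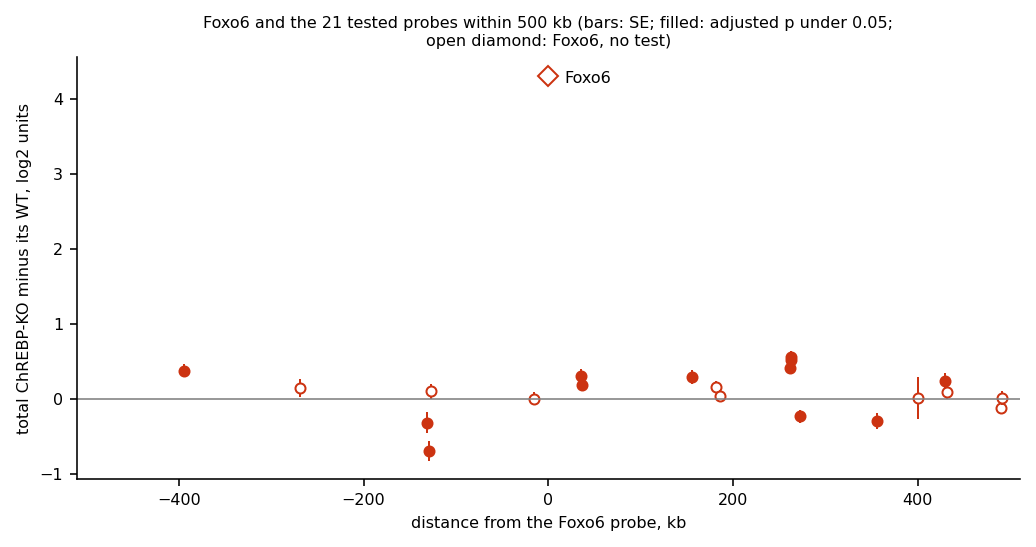
Total ChREBP-KO minus WT difference (y axis, log2 units, bars SE) of Foxo6 (open diamond, no test) and of the 21 tested probes within 500 kb, by distance from the Foxo6 probe (x axis, kb). Filled points passed the test. Foxo6 lies at 4.30 and all others between -0.69 and 0.55.

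The readout genes of the FOXO factors moved in both directions in total ChREBP-KO. Of 40 genes listed as FOXO targets, 39 were tested, 16 rose, 10 fell and 13 did not pass, where 25.8% of all gene names rose and 20.1% fell. The median difference was 0.22 over the list and 0.05 over all gene names. None of the 39 passed in limma in ChREBPβ-KO, with a median of 0.08, and 4 had an unadjusted p under 0.05. Pck1 passed there with array weights, at 0.86 (limma adjusted p = 0.0345), and without ChREBPβ-KO replicate 4, at 0.98 (0.0103), against 0.76 (0.211) over all arrays. Pink1, the kinase that marks damaged mitochondria, passed without the same replicate only, at 0.38 (limma adjusted p = 0.0439), against 0.30 (0.268). The 2 KO effects differed at 12 of the 39, with 5 more positive and 7 more negative in ChREBPβ-KO, where 23.2% of all gene names differed.

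The 4 largest rises among the targets were those of Pck1, Klf15, Bnip3 and Trim63. Pck1, the PEPCK that supplies glycerol for fatty acid re-esterification in fat, had means of 13.83 ± 0.37 in total-line WT and 16.56 ± 0.13 in total ChREBP-KO, a rise of 2.73 ± 0.17 with no overlap of the groups. Klf15, a fasting-induced Krüppel-like factor, rose by 2.07 ± 0.13, and Bnip3, a receptor of mitophagy, by 1.79 ± 0.12, again without overlap. Trim63, the muscle ubiquitin ligase MuRF1, rose by 1.77 ± 0.62 (limma adjusted p = 0.0223) with overlapping groups. It was detected, and well above background, on 2 of 7 WT and 6 of 7 KO arrays, and so passed the filter only through the group in which it was higher. Its p-value is not free of that choice. The skeletal muscle markers were at a higher median in the same arrays, 10.91 against 6.25, and their part in the Trim63 result was not tested.

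Among the largest falls were those of Ccr7 (-2.95 ± 0.66), Il7r (-2.60 ± 0.65) and G6pc (-1.37 ± 0.46). Ccr7 and Il7r are a homing and a cytokine receptor of naive lymphocytes, and G6pc is the glucose-6-phosphatase of liver. Ccr7 also belongs to the lymphocyte marker list, of which 15 of 15 fell in total ChREBP-KO, where 20.1% of all gene names fell. How far the lower lymphocyte markers bear on the falls among the targets was not tested. With the lymphocyte score as a covariate 8 targets rose and 1 fell, while 15.2% of all probes passed.

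**Figure D5:**
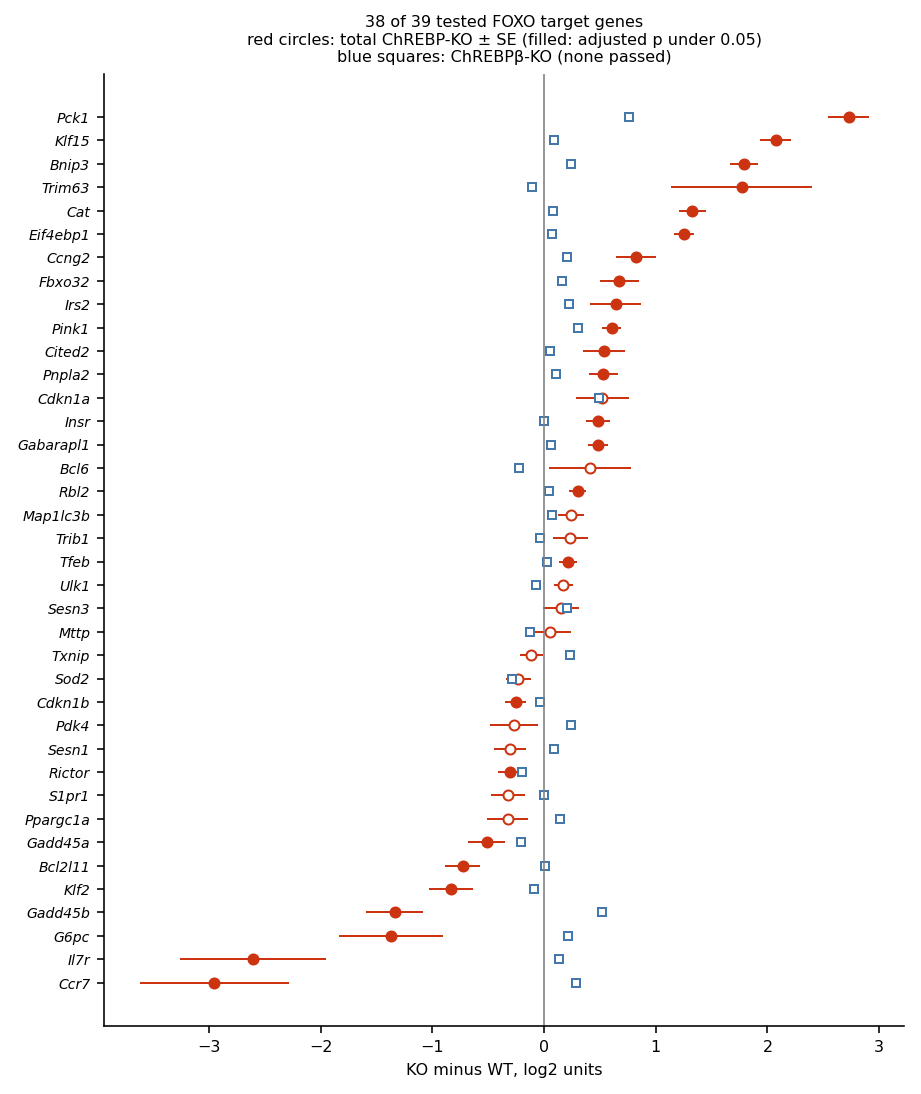
KO minus WT differences (x axis, log2 units) of 38 of the 39 tested FOXO target genes (y axis), as circles with SE for total ChREBP-KO (filled where the adjusted p was under 0.05) and as squares for ChREBPβ-KO. The circles run from -2.95 at Ccr7 to 2.73 at Pck1, and no square passed.

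The proteins that act on FOXO factors were as mixed. All 51 genes listed as FOXO regulators were tested, and 16 rose, 15 fell and 20 did not pass in total ChREBP-KO, where 45.8% of all gene names passed, 25.8% as higher and 20.1% as lower. The median difference was 0.02. None passed in limma in ChREBPβ-KO, also at an unadjusted p under 0.05. Insr, Irs2 and Rictor stand in both the target and the regulator list. The largest rises were those of Pik3r2, a regulatory subunit of PI3K (0.92 ± 0.06), Ywhab, the 14-3-3 protein β (0.72 ± 0.07), Irs2, an insulin receptor substrate (0.64 ± 0.22), and Phlpp1, a phosphatase that inactivates AKT (0.58 ± 0.09). The largest falls were those of the PI3K catalytic subunit of leukocytes Pik3cd (-1.60 ± 0.34), the lipid phosphatases Inpp5d (-1.14 ± 0.27) and Inpp4b (-1.07 ± 0.21), and the 14-3-3 protein σ, Sfn (-0.78 ± 0.16). With the lymphocyte score as a covariate 7 regulators rose and 4 fell, where 15.2% of all probes passed.

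Other forkhead genes showed no difference of the size seen at Foxo6. Of 40 such genes on the array, 27 were tested in total ChREBP-KO, 3 rose and 5 fell, where 25.8% and 20.1% of all gene names did, with a median difference of 0.01, and none passed in limma in ChREBPβ-KO, where 4 had an unadjusted p under 0.05. The 3 that rose were Foxc1 (0.41 ± 0.12), Foxd3 (0.35 ± 0.10) and Foxn3 (0.16 ± 0.06), of which Foxc1 acts in vessel and mesenchyme development. Foxd3 was detected on 4 of 7 arrays in each group of the total line and passed the filter only through β-line WT (6 of 7). The 4 largest falls were Foxf1, a factor of visceral mesenchyme (-1.42 ± 0.26), Foxp1, a factor of lymphocyte quiescence (-0.96 ± 0.17), Foxp3, the factor of regulatory T cells (-0.88 ± 0.18), and the proliferation factor Foxm1 (-0.50 ± 0.16). Foxf1 was detected on 4 of 7 total-line WT arrays, where its mean was highest (7.93), and on 6 of 7 total ChREBP-KO arrays, though well above background on all 26. Foxp3 was detected on 6 of 7 total-line WT and 4 of 7 total ChREBP-KO arrays. It passed the filter through total-line WT, where its mean was highest (7.08), and through ChREBPβ-KO (4 of 5 arrays, mean 5.66). The lymphocyte markers fell in the same arrays, and with their score as a covariate 1 forkhead gene rose and none fell, where 15.2% of all probes passed.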

How the data were processed

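RNA from subcutaneous fat was hybridised to 26 Agilent 1-colour mouse arrays, 1 per mouse, and the number of arrays limits the precision. Per the submitters' processing notes the scans were read with Agilent Feature Extraction 10.10.1.1, and the deposited files hold the intensity of each spot. Log2 quantile-normalized values of 40168 probes were deposited as well, and lay a median of 0.00078 log2 units from those computed here over 38499 shared probes.

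Following the study's methods, median pixel intensities were used, and a probe was kept where its spots were found, significantly positive and well above background on 21 of 26 arrays or on at least 6 of 7 or 4 of 5 arrays of a group, a filter scaled from the 26 of 32 arrays of the methods. Spots called outliers were left out, replicate spots were reduced to their median, and log2 values were quantile-normalized. The study's methods name no test for the arrays, so limma 3.58.1 in R 4.3.3 (lmFit, eBayes) was fitted to 4 group means over all 26 arrays (22 residual degrees of freedom), with Benjamini-Hochberg adjustment over 38832 probes and a call at 0.05. Groups were taken from the labels. The fit was tested on simulated data.

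The Foxo family and the lists of FOXO targets, FOXO regulators, forkhead genes and cell markers were chosen with earlier results of these data known. The list members are textbook choices, so no adjustment over a list alone is given. A gene of a list is read from its brightest probe over all arrays. Named genes are the 4 called genes of a list with the largest rise and the 4 with the largest fall in total ChREBP-KO, every gene within 500 kb of Foxo6, and the 5 genes most like and the 3 most unlike Foxo6 in Pearson's r, of which some are not reported here.

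Each wash batch that the labels give lay within 1 of 2 scan days. Alternatives were other scalings, background correction, filters, the deposited table, wash batch or slide as a block, marker scores as covariates, array weights and leaving out each array.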

Additional observations from a re-analysis of the deposited data

Results flagged for a closer look

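Over 32 groups of values (8 probes in 4 groups of arrays), 2 held an array far from the rest of its group, where chance gives about 1 in 20. For Foxo6, total-line WT replicate 1 lay above the other 6 arrays at 6.89 log2 units, still far below every total ChREBP-KO array. For Foxo3 A_65_P08314, ChREBPβ-KO replicate 1 lay below the other 4 arrays at 8.24. The effects of the 2 knockouts on Foxo1 A_52_P453884 differed by -0.58 log2 units (ChREBPβ-KO effect minus total ChREBP-KO effect, limma adjusted p = 0.00271).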

How the results depend on the processing

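With the slide as a fixed block, which leaves 8 residual degrees of freedom, 0 Foxo1, Foxo3 and Foxo4 probes passed in total ChREBP-KO (3 without it) and 0 in the comparison of the effects (1 without it). Of all probes 21.7% then passed in total ChREBP-KO (45.5% without it) and 1.59% in the comparison of the effects (22.5%). The lists then gave 15 calls for FOXO targets (26 without it), 16 for regulators (31), 3 for other forkhead genes (8) and 0 for Foxo6 neighbours (6). The lymphocyte score as a covariate gave these lists 9, 11, 1 and 1 calls, and with lymphocyte and muscle scores 10, 11, 1 and 1. Of all probes 15.2% passed in total ChREBP-KO with the lymphocyte score and 13.9% with both scores. Probes detected on all arrays gave 3 other forkhead calls. Scaling to the 75th percentile, from median intensities or processed signals, gave 2 calls in the comparison of effects. Between the WT lines, where 2 of the 6 probes passed, both of these scalings gave 0, both covariate fits 0, and the all-array filter, the slide block and a fit of the WT groups alone gave 1. Of all probes 45.4% passed there in the main fit, 5.27% with the lymphocyte score and 4.03% with both scores. The covariate fits cannot tell the WT lines from the lymphocyte score, which did not overlap between them. The scalings gave 46.1% and 47.3%, the all-array filter 48.1% of the probes it kept, the slide block 31.0% and the WT groups alone 42.9%. Array weights gave 1 FOXO target call in ChREBPβ-KO. The cause of these changes was not tested.

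Leaving out each array in turn gave 2 to 4 Foxo probes in total ChREBP-KO, 0 to 0 in ChREBPβ-KO, 1 to 1 in the comparison of effects and 1 to 2 between the WT lines. It gave 25 to 28 targets, 27 to 32 regulators, 7 to 9 other forkhead genes and 5 to 7 neighbours in total ChREBP-KO, and in ChREBPβ-KO 0 to 2 targets and 0 of the other lists. The Foxo6 difference in total ChREBP-KO ran from 3.84 with normexp background correction to 4.62, and from 4.19 to 4.39 over the fits without 1 array.

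The replicate block, a fixed term for the number within a line, gave 3, 0 and 1 Foxo calls in total ChREBP-KO, ChREBPβ-KO and the comparison of effects, and 24, 25, 6 and 4 calls for the lists, and it changed no other call by over 1.5 times. The numbers were not taken to pair the samples: over 10 pairs the deviations from the group means correlated at -0.35 to 0.51, 4 pairs exceeded 0.1, and 3 of 20 arrays correlated best with the array of their own number. The WT lines could not be compared with that block.

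The sign turned for the following differences, and no difference with a turned sign passed the test. Foxo3 A_65_P08314 in total ChREBP-KO was 0.00072 with normexp, 0.0073 with the wash batch, 0.058 with both covariates and 0.064 with the lymphocyte score, and -0.046 to 0.061 without 1 array. In ChREBPβ-KO it was 0.034 with the wash batch, 0.00498 with the slide and -0.048 to 0.037 without 1 array, and its difference of effects was 0.056 and 0.032 with the scalings, 0.023 with the all-array filter, 0.026 with the wash batch, 0.025 with the slide and -0.082 to 0.045 without 1 array. Foxo3 A_55_P2506540 was 0.011 in total ChREBP-KO with both covariates, -0.031 to 0.055 in ChREBPβ-KO without 1 array, and between WT lines 0.096 with both covariates, 0.082 with the lymphocyte score and -0.071 to 0.021 without 1 array. Foxo3 A_55_P2735425 was -0.0058 in ChREBPβ-KO with the wash batch, and between WT lines -0.044 with scaled median intensities and -0.0045 with the lymphocyte score. Foxo1 A_55_P2798990 had a difference of effects of 0.072 with the slide, and Foxo1 A_52_P453884 differed between WT lines by 0.12 with both covariates and 0.10 with the lymphocyte score. The Foxo4 A_51_P200875 difference of effects was -0.0023 with the deposited table, -0.0016 with the wash batch, -0.0061 with both covariates and -0.052 to 0.055 without 1 array, and its WT difference was 0.0054 with no filter, 0.0083 with the deposited table, 0.0064 with the wash batch and -0.050 to 0.028 without 1 array. Dim signals limit Foxo4 and Foxo3 A_55_P2735425.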
